A study of Mus musculus with 14 samples.

Results

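The 10 genes described here encode subunits of the Polycomb repressive complexes: the 6 PRC2 genes Ezh1, Ezh2, Eed, Suz12, Jarid2 and Aebp2 and the 4 PRC1 genes Ring1, Rnf2, Pcgf3 and Pcgf5. They were taken by name from a table of 55416 genes, and all 10 passed the filter on low counts that left 18430 genes for testing. RNA was sequenced from mouse stem cell lines treated with STM2457, which blocks the RNA methyltransferase METTL3 and so the making of N6-methyladenosine (m6A), at 50 µM for 12 h, or with the solvent DMSO. Extraembryonic endoderm stem cells (XEN, genotype WT) gave 3 libraries with DMSO and 3 with STM2457. Trophoectoderm stem cells (TSC, genotype WT) gave 2 and 2, and epiblast stem cells (EpiSC, genotype XmolXmus-ΔTsix, with a Tsix allele deleted in treated and control cells alike) gave 2 and 2. Every line was a Mus molossinus × Mus musculus hybrid. Each lineage was represented by 1 labelled line, and the lines grew in different media (XEN in serum, TSC in serum with fibroblast-conditioned medium and Fgf4, EpiSC in serum replacement with Fgf2 and Activin A). Lineage and medium therefore cannot be told apart, nor genotype for EpiSC. The labels do not say whether replicates were separate cultures, and the p-values reflect library-to-library spread alone, which may be technical. The table gives Ring1 as ENSMUSG00000024325, Ezh2 as ENSMUSG00000029687, Eed as ENSMUSG00000030619 and Aebp2 as ENSMUSG00000030232.

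PRC2 places methyl groups on lysine 27 of histone H3. Ezh1 or Ezh2 is its catalytic subunit, Eed binds the finished mark and stimulates the enzyme, Suz12 is the scaffold, and Jarid2 and Aebp2 are accessory subunits that help it onto chromatin. PRC1 adds ubiquitin to histone H2A through Ring1 (RING1A) or Rnf2 (RING1B), paired with one of the Pcgf proteins. The Pcgf3 and Pcgf5 forms of PRC1 are recruited by the noncoding RNA Xist through the RNA-binding protein hnRNP K, and this leads PRC2 to the inactive X chromosome. Polycomb activity is needed to hold developmental genes such as the Hox clusters silent in stem cells of the early embryo.

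The promoters of the 3 members whose response to STM2457 was most stable, Ring1, Ezh2 and Eed, are shown because they carry different sequence elements. Each runs 5′ to 3′ on the gene's strand, from 250 bases before to 30 bases after the start site in RefSeq on GRCm38.p6. Capitals mark matches on either strand to any of 5 motifs. These were TTTGGCGC or TTTCGCGC for E2F factors, TGACGT as the core of a cyclic AMP response element, the CCAAT box, the GC box GGGCGG, and CCGGAAG for ETS factors.
Ring1, chr17:34024651-34024930, minus strand: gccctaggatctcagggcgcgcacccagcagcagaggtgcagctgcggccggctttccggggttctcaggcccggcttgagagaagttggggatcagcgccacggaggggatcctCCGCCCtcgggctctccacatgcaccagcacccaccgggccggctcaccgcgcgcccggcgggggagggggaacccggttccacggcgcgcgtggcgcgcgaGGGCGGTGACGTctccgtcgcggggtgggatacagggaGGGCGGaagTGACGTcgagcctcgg
Ezh2, chr6:47595001-47595280, minus strand: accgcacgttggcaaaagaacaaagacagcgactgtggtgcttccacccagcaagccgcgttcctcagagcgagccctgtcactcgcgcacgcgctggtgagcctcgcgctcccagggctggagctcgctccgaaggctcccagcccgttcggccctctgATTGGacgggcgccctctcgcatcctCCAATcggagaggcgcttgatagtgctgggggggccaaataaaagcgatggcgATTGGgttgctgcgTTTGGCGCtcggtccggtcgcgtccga
Eed, chr7:89980947-89981226, minus strand: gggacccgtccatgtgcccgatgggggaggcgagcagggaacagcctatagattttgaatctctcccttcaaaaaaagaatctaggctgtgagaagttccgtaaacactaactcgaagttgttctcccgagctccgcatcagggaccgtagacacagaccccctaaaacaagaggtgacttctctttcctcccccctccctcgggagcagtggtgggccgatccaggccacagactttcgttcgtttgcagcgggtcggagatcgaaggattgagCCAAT
The Ring1 window held TGACGT 2 times and GGGCGG 3 times. The Ezh2 window held the E2F letters once and CCAAT 3 times, and the Eed window held CCAAT once. Among 32851 RefSeq promoter windows of the same length, 0.752% held the E2F letters, 7.26% TGACGT, 36.1% CCAAT, 34.7% GGGCGG and 8.45% CCGGAAG. All 10 members had an entry, 7 of them with 1 start site. The E2F letters and TGACGT were found in no other member's windows. The motifs were chosen after the windows had been read, and a match is a description of the sequence only.

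The libraries held 6826496 to 10024628 counts in XEN, 17909934 to 20354242 in TSC and 18640099 to 21097380 in EpiSC. Summed levels of 6 primitive endoderm markers were 2030 to 2571 CPM (counts scaled to a common library total, adjusted by edgeR's TMM method) in XEN and at most 36.4 CPM elsewhere. The 6 trophoblast stem cell markers summed to 1614 to 1672 CPM in TSC, to 155 to 164 CPM in EpiSC, mostly Esrrb and Eomes, and at most 34.9 CPM in XEN. The 6 epiblast markers summed to 878 to 1106 CPM in EpiSC, to 270 to 288 CPM in TSC, nearly all Sox2, and to at most 0.666 CPM in XEN. Of 6 markers of differentiated trophoblast, up to 3 were at 0 in a TSC library, and the list summed to 1249 to 1362 CPM there, nearly all from Hand1 (1305 ± 79.6 CPM with DMSO, mean ± SD, n = 2). Fibroblast markers summed to 41.6 to 55.0 CPM in EpiSC, 3.14 to 4.24 CPM in TSC and at most 0.972 CPM in XEN; their part in the line differences was not tested. Mitochondrial rRNA took 12.0% to 16.0% of XEN counts and 0.0366% to 0.0505% elsewhere. Depth and library make-up thus went with line, and differences against XEN cannot be told apart from them. STM2457 blocks an enzyme and not its messenger RNA, so no transcript checks the treatment labels.

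The first question was how the members' levels differ between lines without inhibitor. The catalytic pair of PRC2 differed most within the complex. Ezh2 stood at 37.9, 60.7 and 46.7 CPM in the 3 DMSO libraries of XEN, at 229 and 231 CPM in TSC, and at 163 and 169 CPM in EpiSC. The XEN libraries lay below all others. Ezh2 was 4.76-fold higher in TSC than in XEN (log2 2.25 ± 0.14, adjusted p = 2.84e-10, edgeR quasi-likelihood F test with Benjamini-Hochberg adjustment, as for all adjusted p-values here) and 3.42-fold higher in EpiSC (log2 1.78 ± 0.14, adjusted p = 5.65e-09). Errors of log2 fold changes are standard errors. Ezh1, the other methyltransferase, followed another order: 53.7, 54.4 and 53.8 CPM in XEN, 106 and 107 CPM in TSC, 16.8 and 17.4 CPM in EpiSC. It was 6.22-fold lower in EpiSC than in TSC (log2 −2.64 ± 0.12, adjusted p = 1.40e-11) and 3.16-fold lower than in XEN (log2 −1.66 ± 0.11, adjusted p = 1.35e-09). Compared per kilobase of exon, Ezh2 made up 44.0% to 55.4% of the Ezh1 and Ezh2 level in XEN, 70.7% in both TSC libraries and 91.5% in both EpiSC libraries. This share does not depend on how libraries are scaled against each other, and its order was XEN, TSC, EpiSC with no overlap.

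The other PRC2 members gave smaller differences. Jarid2, which brings PRC2 to its target genes, stood at 37.9, 48.4 and 55.3 CPM in XEN, 157 and 146 CPM in TSC, and 134 and 129 CPM in EpiSC. It was 3.21-fold higher in TSC than in XEN (log2 1.68 ± 0.12, adjusted p = 2.86e-09) and 2.78-fold higher in EpiSC (log2 1.47 ± 0.12, adjusted p = 1.53e-08). TSC and EpiSC did not pass the test against each other (adjusted p = 0.198), except in a fit of those lines alone (log2 −0.21, adjusted p = 0.00257). Suz12 was highest in TSC, where its libraries read 362 and 358 CPM, against 178 and 200.3 CPM in EpiSC and 146, 221 and 138 CPM in XEN. Between EpiSC and XEN it was not called (adjusted p = 0.337). It was called higher in EpiSC without DMSO library 2 of XEN (adjusted p = 0.0026) and lower with libraries scaled to 80 ribosomal protein genes in place of TMM (log2 −0.67, adjusted p = 0.0301). Eed stood at 48.4, 55.5 and 53.1 CPM in XEN, 90.8 and 97.5 CPM in TSC, and 77.8 and 83.9 CPM in EpiSC, and was higher than in XEN in TSC (log2 0.85 ± 0.11) and in EpiSC (log2 0.63 ± 0.11). Aebp2 passed the test in none of the pairs (adjusted p = 0.233, 0.423 and 0.772), with DMSO libraries from 73.6 to 86.2 CPM in all lines. DESeq2 called it lower in TSC than in XEN (log2 −0.21, adjusted p = 0.0429). Scaling to ribosomal protein genes made it lower than XEN in TSC (log2 −1.24, adjusted p = 4.75e-06) and in EpiSC (log2 −0.90, adjusted p = 1.40e-04).

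In PRC1 the largest difference was in Pcgf5. Its DMSO libraries stood at 102, 131 and 109 CPM in XEN, 39.0 and 40.2 CPM in TSC, and 17.3 and 19.2 CPM in EpiSC. The 3 lines did not overlap, and Pcgf5 was 2.87-fold lower in TSC (log2 −1.52 ± 0.12, adjusted p = 9.48e-09) and 6.22-fold lower in EpiSC (log2 −2.64 ± 0.13, adjusted p = 2.18e-11) than in XEN. Pcgf3, its close relative, had the opposite order, with 74.3, 99.7 and 76.7 CPM in XEN, 118 and 109 CPM in TSC, and 138 and 138 CPM in EpiSC. Per kilobase of exon, Pcgf5 made up 49.8% to 51.8% of the Pcgf3 and Pcgf5 level in XEN, 20.0% to 21.8% in TSC and 8.69% to 9.52% in EpiSC. Rnf2, the more abundant of the 2 ubiquitin ligases in every library, stood at 99.9 to 104 CPM in XEN, 134.2 and 133.5 CPM in TSC and 93.9 CPM in both EpiSC libraries. Between EpiSC and XEN it was not called by edgeR (adjusted p = 0.276) and was called lower by DESeq2 (adjusted p = 0.0362) and with scaling to ribosomal protein genes (adjusted p = 6.79e-05). Ring1 stood at 17.7, 15.7 and 19.8 CPM in XEN, 11.5 and 12.4 CPM in TSC, and 14.2 and 11.7 CPM in EpiSC. It was lower than in XEN in TSC (log2 −0.57 ± 0.15, adjusted p = 0.00292) and in EpiSC (log2 −0.46 ± 0.15, adjusted p = 0.0124). The call in EpiSC was lost without DMSO library 3 of XEN (adjusted p = 0.0556), without library 2 of EpiSC (adjusted p = 0.172) and with no filter on low counts (adjusted p = 0.0656).

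A gene is called here at an adjusted p under 0.05. Between TSC and XEN 9 of 10 members were called, against 72.5% of all tested genes, with 7 higher in TSC (36.5% of all genes) and 2 lower (36%). Between EpiSC and XEN 7 were called, against 71.7%, with 4 higher in EpiSC (36.6%) and 3 lower (35.1%). Between EpiSC and TSC 5 were called, against 54.4%, all lower in EpiSC (27%): Ezh1, Ezh2, Suz12, Rnf2 and Pcgf5. The call of Ezh2 was lost without DMSO library 1 of EpiSC (adjusted p = 0.0711), and Pcgf3 was called higher in EpiSC without DMSO library 1 or 2 of XEN (adjusted p = 0.0477 and 0.0151). For TSC against XEN, 5 of the 6 PRC2 members were higher and 0 lower, with a median log2 difference of 1.04. The 4 PRC1 members split into 2 higher and 2 lower, with a median of −0.09, and the median over all genes was 0.00. Directions against XEN depend on the scaling. With libraries scaled to 80 ribosomal protein genes, the median of all genes fell by 1.04 on the log2 scale for TSC against XEN and by 0.751 for EpiSC against XEN. Under that scaling Ezh1, Eed and Suz12 were not called between TSC and XEN, nor Eed and Pcgf3 between EpiSC and XEN. Rnf2 and Pcgf3 were called lower in TSC than in XEN (log2 −0.70, adjusted p = 6.60e-04, and −0.68, adjusted p = 0.00661). All 4 PRC1 members were then lower in TSC, with a median of −1.18. Between EpiSC and TSC, Ezh2, Suz12 and Rnf2 lost their calls (adjusted p = 0.564, 0.0722 and 0.299). Ezh2 and Jarid2 stayed higher, and Pcgf5 and Ring1 lower, than in XEN in both lines.

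**Figure D1:**
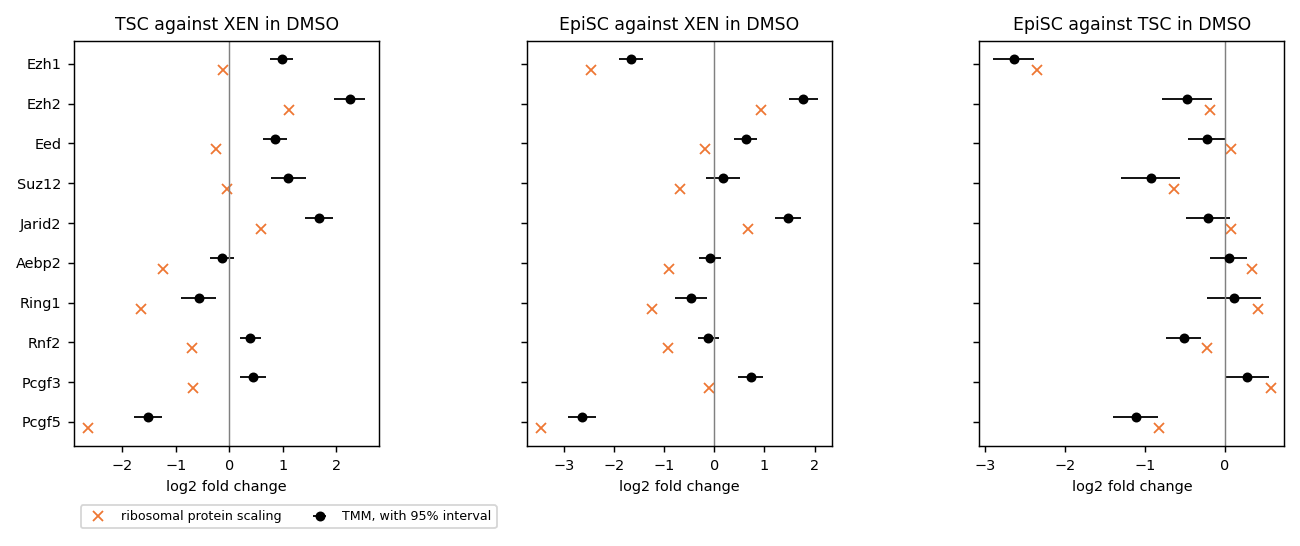
Log2 fold changes of the 10 members between lines in DMSO, 1 panel a pair. Black points are TMM-scaled estimates with 95% intervals and orange crosses the estimates after scaling to ribosomal protein genes. The crosses lie lower in the 2 panels against XEN. Ezh2, Jarid2, Aebp2, Ring1 and Pcgf5 keep their side of 0 in both of those panels.

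**Figure D2:**
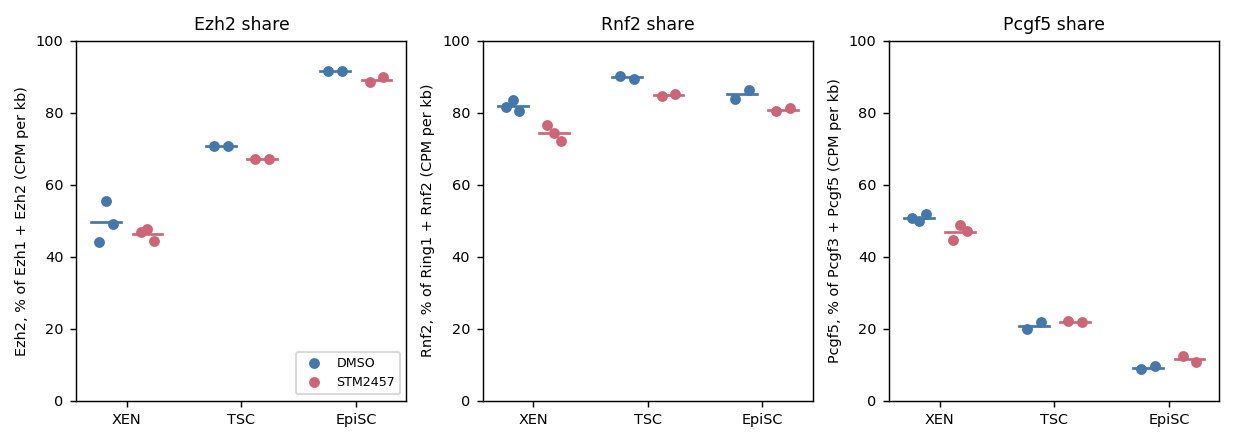
Shares of Ezh2, Rnf2 and Pcgf5 within their paralogue pairs, in percent of CPM per kilobase, with 1 point a library, bars at group means, blue for DMSO and red for STM2457. The Ezh2 share climbs from XEN to TSC to EpiSC while the Pcgf5 share falls, and the Rnf2 share is lower with STM2457 in every line.

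The second question was how the members responded to STM2457. Over the mean of the 3 lines, Ring1 rose 1.48-fold, while Ezh2 fell 1.29-fold, Eed 1.21-fold and Aebp2 1.14-fold. The other 6 members did not pass the test. The 4 calls among 10 members stand against 13.4% of all tested genes; 1 was higher, against 7.78% of genes, and 3 were lower, against 5.62%. All 3 falls were in PRC2, and the rise was in PRC1. The members were chosen with earlier results of these data known, so these counts and this split are descriptions only.

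Ring1 stood at 17.7, 15.7 and 19.8 CPM in XEN with DMSO and at 24.2, 22.7 and 27.3 CPM with STM2457. In TSC it went from 11.5 and 12.4 CPM to 18.6 and 18.7 CPM, and in EpiSC from 14.2 and 11.7 CPM to 20.3 and 18.7 CPM. Every treated library lay above every control library of its line. The mean effect was log2 0.57 ± 0.09 (adjusted p = 4.19e-04), and it was called under each of the 19 alternative settings and left-out libraries tried, with log2 values from 0.52 to 0.65. In single lines the effect was log2 0.48 ± 0.14 in XEN (adjusted p = 0.0642), 0.64 ± 0.16 in TSC (adjusted p = 0.0666) and 0.59 ± 0.16 in EpiSC (adjusted p = 0.0692). None passed the threshold in the fit of all libraries. Fits of TSC alone and of EpiSC alone called it (adjusted p = 1.16e-04 and 7.93e-04). With the replicate number as a block, which the data bear out for XEN only, the adjusted p was 0.0068, 0.00125 and 0.00165. The effect was also called in TSC and EpiSC without DMSO library 2 of XEN (adjusted p = 0.0262 and 0.0282) or STM2457 library 2 of XEN (adjusted p = 0.0379 and 0.0402). The effects in TSC and XEN differed by 0.17, with a 95% interval from −0.27 to 0.61, and those in EpiSC and XEN by 0.11, from −0.32 to 0.55. Rnf2, the other ligase, had a mean effect of log2 0.00 ± 0.06. Its share of the Ring1 and Rnf2 level per kilobase went from 80.5% to 83.6% in XEN with DMSO to 72.3% to 76.5% with STM2457, from 89.4% to 90.2% to 84.6% to 85.1% in TSC, and from 83.9% to 86.3% to 80.4% to 81.4% in EpiSC. No group overlapped its control. Per kilobase of longest transcript, Ring1 had the most GGAC among the members, a sequence form in which m6A is often found. It held 6.27, at percentile 87.3 of 21877 protein-coding genes, against 1.14 to 4.21 for the other 9. Next came Aebp2 (4.21), Ezh2 (3.95) and Eed (3.39), the members called lower over the mean. By number of sites, Ring1 (16) stood below Aebp2 (25), Jarid2 (24) and Pcgf5 (20). A link between GGAC and the responses was not tested. Methylation itself was not measured in these libraries.

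Ezh2 went from 229 and 231 CPM to 181 and 174 CPM in TSC and from 163 and 169 CPM to 124 and 132 CPM in EpiSC. Its STM2457 libraries in XEN stood at 40.9, 35.2 and 38.3 CPM and overlapped the DMSO libraries, of which the second was highest at 60.7 CPM. The effects in the 3 lines were close in size, log2 −0.34 ± 0.13, −0.38 ± 0.15 and −0.37 ± 0.15 for XEN, TSC and EpiSC, with a mean of −0.36 ± 0.08 (adjusted p = 0.00705). Among left-out libraries, single lines passed only without DMSO library 1 of XEN for XEN (adjusted p = 0.0238), without DMSO library 2 of XEN for EpiSC (adjusted p = 0.047). Eed, the subunit that reads the mark, went from 48.4, 55.5 and 53.1 CPM to 39.9, 47.9 and 40.2 CPM in XEN. In TSC it went from 90.8 and 97.5 CPM to 75.2 and 79.3 CPM, and in EpiSC from 77.8 and 83.9 CPM to 68.3 and 69.6 CPM. Treated libraries lay below controls in each line, and the mean effect was log2 −0.27 ± 0.06 (adjusted p = 0.00914). The effect in XEN was called without STM2457 library 2 of XEN (adjusted p = 0.0452). Both mean calls held in 18 of 19 alternatives and were lost with scaling to ribosomal protein genes (Ezh2 log2 −0.30, adjusted p = 0.207; Eed log2 −0.20, adjusted p = 0.299). Eed shares 261 bases of exon with the opposite-strand gene E230029C05Rik, and whether counting used strand was not stated in the labels read here. The same holds for Rnf2, which shares 158 bases with Trmt1l, and Pcgf5, which shares 60 with F530104D19Rik.

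Aebp2, a zinc finger subunit, went from 78.2, 84.2 and 86.2 CPM to 71.2, 58.7 and 63.5 CPM in XEN. In the fit of all libraries this was the only member called in a single line (log2 −0.36 ± 0.10, adjusted p = 0.0412). That fit called 4.15% of genes in XEN, and 1.07% lower. An edgeR fit of XEN alone did not call Aebp2 (adjusted p = 0.284). The call was kept in 6 of 21 alternatives, and the direction in all of them. Among left-out libraries it was kept without DMSO library 1 or STM2457 library 1 of XEN and lost without any other, with adjusted p up to 0.123. The mean effect over lines was log2 −0.19 ± 0.06 (adjusted p = 0.0475), and its call was kept in 6 of 19 alternatives. Scaling to ribosomal protein genes lost the call (adjusted p = 0.555). It was lost without STM2457 library 2 or 3 or DMSO library 3 of XEN, and without any 1 library of TSC or EpiSC, with adjusted p up to 0.16 over the left-out libraries. Ezh1, Suz12 and Jarid2 had mean effects of log2 −0.09 ± 0.06, −0.02 ± 0.09 and 0.04 ± 0.07, with 95% intervals from −0.22 to 0.05, from −0.22 to 0.175 and from −0.12 to 0.19.

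The accessory pair of PRC1 did not pass the test in the fit of all libraries. Fits of TSC alone and of EpiSC alone called Pcgf5 higher (adjusted p = 0.023 and 0.00191). Pcgf5 went from 102, 131 and 109 CPM to 88.9, 103 and 103 CPM in XEN, from 39.0 and 40.2 CPM to 45.7 and 46.5 CPM in TSC, and from 17.3 and 19.2 CPM to 26.2 and 24.3 CPM in EpiSC. Treated libraries overlapped controls in XEN and lay above them in TSC and EpiSC. The log2 effects were −0.21 ± 0.11, 0.22 ± 0.13 and 0.46 ± 0.13. The test of a difference between lines gave an unadjusted p of 0.00292 and an adjusted p of 0.691 by edgeR. With the replicate block that adjusted p was 0.0131, the only member called there. The effect in EpiSC had an adjusted p of 0.094, of 0.00425 with the block and of 0.0292 without DMSO library 2 of XEN, and the mean effect of log2 0.16 ± 0.07 one of 0.171, 0.0342 and 0.0365. Pcgf3 stood at 74.3 to 99.7 CPM with DMSO and 81.8 to 87.5 CPM with STM2457 in XEN, at 109 to 118 CPM and 121 to 126 CPM in TSC, and at 138 CPM in both DMSO libraries and 139 to 153 CPM in EpiSC. Its mean effect was log2 0.07 ± 0.07.

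In TSC and in EpiSC 0 members were called by edgeR in the fit of all libraries, against 0.966% and 1.68% of genes. Fits of TSC alone and of EpiSC alone called many more genes, 4378 and 4321. Both called Ring1 and Pcgf5 higher and Ezh2 and Eed lower. These fits filtered genes on their own libraries, and their shares of tested genes called are not given here. The member calls in them therefore cannot be set against a share of all genes. The adjusted p was 6.60e-05 and 7.74e-05 for Ezh2, and 0.00347 and 0.0106 for Eed. At an unadjusted p under 0.05 there were 4 members in XEN, 3 in TSC and 3 in EpiSC, against 17.3%, 13.4% and 14.8% of genes. DESeq2 called 3, 1 and 2 members, against 8.62%, 5.27% and 6.26%. With the replicate block, which called 13.3%, 11% and 13.2% of genes, each line had 3 called members: Eed, Aebp2 and Ring1 in XEN, Ezh2, Eed and Ring1 in TSC, and Ezh2, Ring1 and Pcgf5 in EpiSC. For the difference between lines 0 members were called by edgeR and by DESeq2 and 1 had an unadjusted p under 0.05. Of all genes, 0.00543% were called by edgeR, 0.429% by DESeq2 and 1.42% with the block, and 5.24% had an unadjusted p under 0.05. STM2457 and DMSO libraries did not overlap for 4 members in XEN, where this held for 15.4% of genes, for 8 in TSC (55.7%) and for 9 in EpiSC (56.1%).

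**Figure D3:**
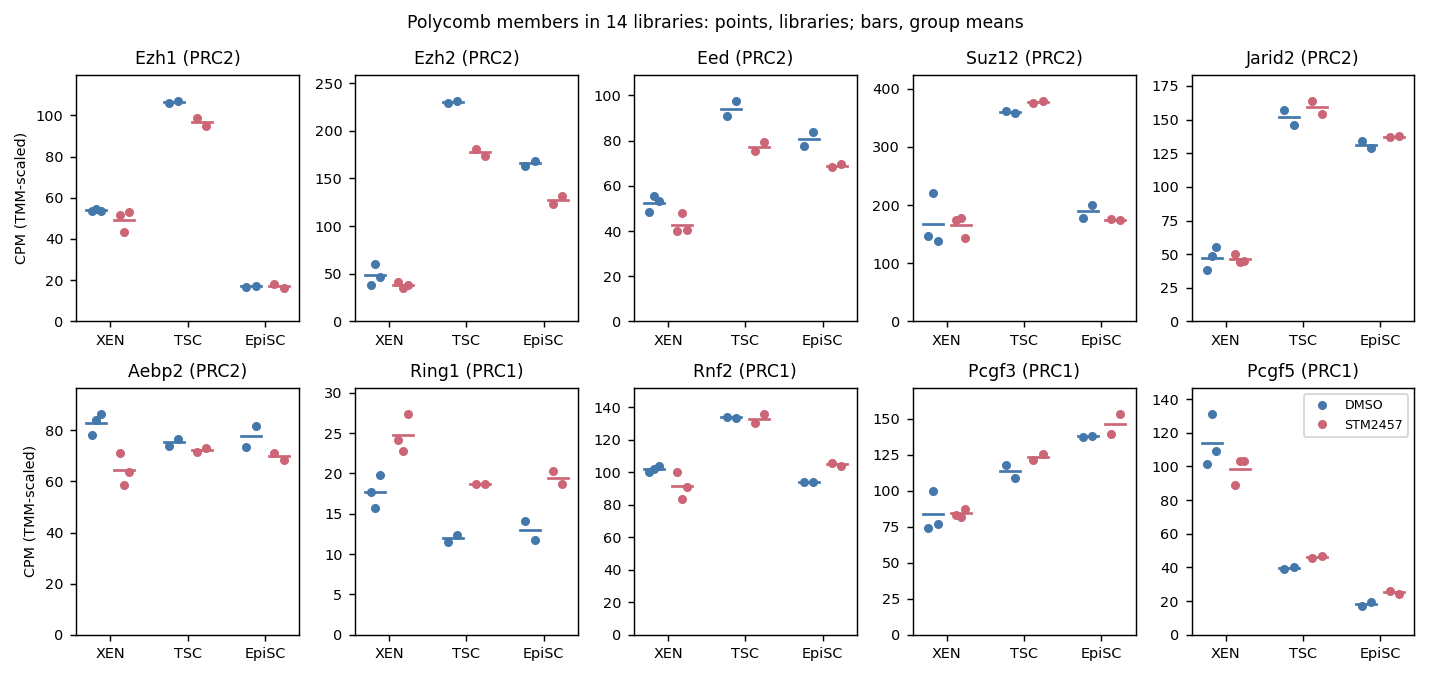
Levels of the 10 members in CPM, 1 panel a gene, with 1 point for each of the 14 libraries, bars at group means, blue for DMSO and red for STM2457. Ring1 lies higher with STM2457 in all 3 lines, Ezh2 and Eed have lower means, and Pcgf5 lies higher with STM2457 in TSC and EpiSC and overlaps in XEN; Ezh2 also overlaps in XEN.

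**Figure D4:**
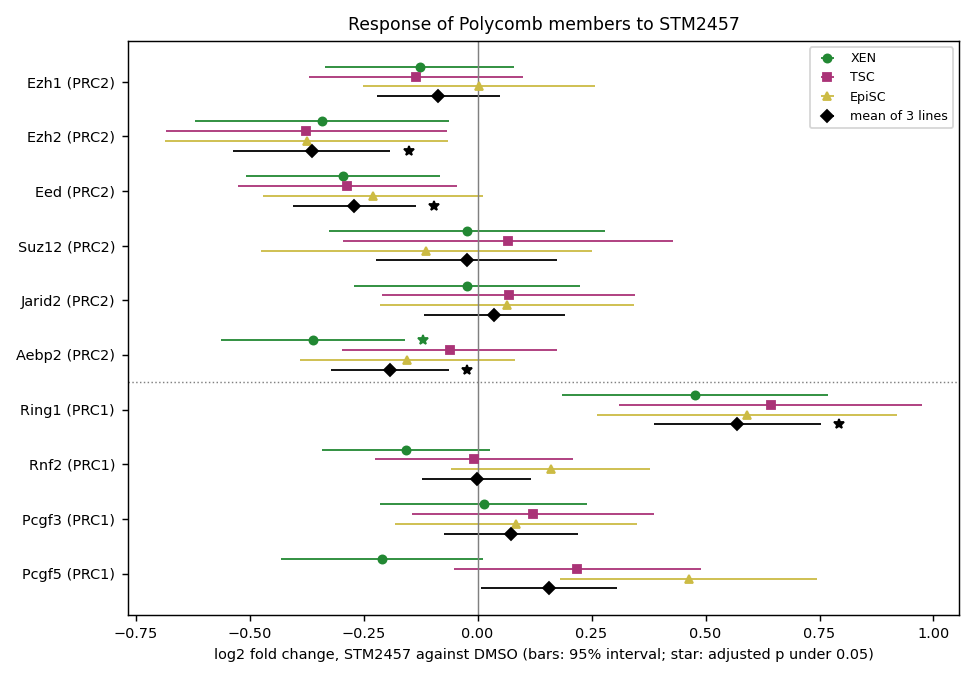
Log2 fold changes of STM2457 against DMSO for each member, with 95% intervals, by line and for the mean of the 3 lines (black diamonds). Stars mark an adjusted p under 0.05: Ezh2, Eed, Aebp2 and Ring1 in the mean and Aebp2 in XEN.

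Set against each other by summed level, the PRC2 members stood lower relative to the PRC1 members with STM2457 than with DMSO in TSC and EpiSC. The summed level per kilobase of the 6 PRC2 members was 67.0 to 89.0 CPM per kb in XEN with DMSO, 169 to 170 in TSC and 104 to 112 in EpiSC. The 4 PRC1 members summed to 45.5 to 50.3, 50.8 to 51.5 and 42.4 to 42.9 CPM per kb, a narrower range across lines. Their ratio, which does not depend on scaling between libraries, was 1.47 to 1.77 in XEN, 3.28 to 3.34 in TSC and 2.43 to 2.63 in EpiSC. With STM2457 the ratio was 1.33 to 1.59 in XEN, overlapping the controls, and 2.87 to 2.98 in TSC and 1.97 in both EpiSC libraries, below the controls. The mean log2 level of the PRC2 members less that of the PRC1 members weighs each member alike. This measure lay below its controls in XEN too. With DMSO it was −0.11 to 0.052 in XEN, 1.41 in TSC and 0.93 to 1.04 in EpiSC. With STM2457 it was −0.35 to −0.17, 1.02 to 1.07 and 0.51 to 0.53. No p is given for these measures. On the TMM scale the treated PRC2 sums lay below their controls in TSC and EpiSC, at 159 to 160 and 95.5 to 96.6 CPM per kb. With scaling to ribosomal protein genes the PRC2 sums overlapped in EpiSC and in TSC, in counts per kb on that scale, at 110 to 117 with DMSO and 116 to 120 with STM2457 in TSC and at 85.1 to 92.1 and 83.6 to 89.3 in EpiSC. The PRC1 sums in TSC and EpiSC lay above their controls on both scales, at 53.7 to 55.5 and 48.6 to 48.9 CPM per kb on the TMM scale. In XEN the PRC1 sums overlapped their controls on both scales. Median log2 effects of the PRC2 and PRC1 members were −0.21 and −0.07 in XEN, −0.10 and 0.17 in TSC, and −0.13 and 0.31 in EpiSC, beside a median of 0.00 for all genes in each line. The PRC2 medians in TSC and EpiSC became 0.04 and −0.0025 with scaling to ribosomal protein genes, and the PRC1 medians 0.31 and 0.44.

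**Figure D5:**
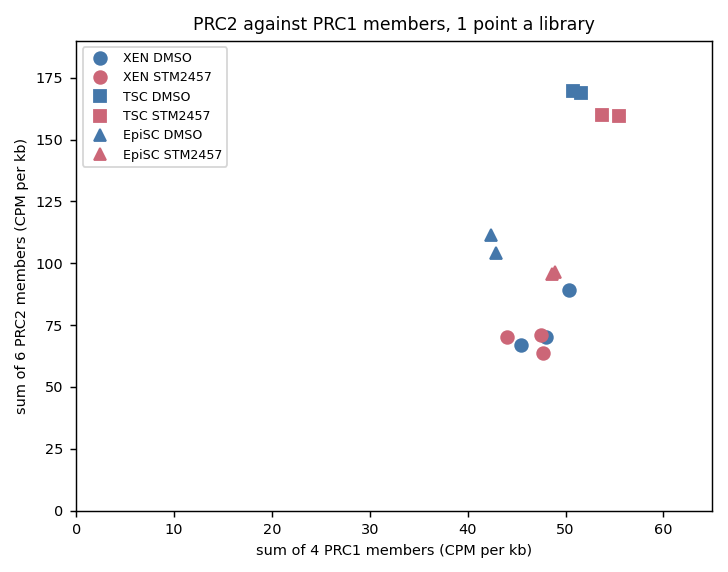
Summed level of the 6 PRC2 members against that of the 4 PRC1 members, both in CPM per kilobase of exon, 1 point a library, shapes for lines, blue for DMSO and red for STM2457. TSC lie highest on the PRC2 axis, and the STM2457 libraries of TSC and EpiSC lie lower on that axis and further right than their controls on this TMM scale; scaling to ribosomal protein genes makes the PRC2 sums overlap.

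Other genes of the 2 complexes came from lists written with earlier results of these data known. Of 9 further PRC2 genes, 8 were tested. Over the mean 3 were called by edgeR and 3 by DESeq2, against 13.4% and 18.1% of all genes. An unadjusted p under 0.05 was found for 4, against 25.7% of all genes. Over the mean of the lines 2 of them fell, both histone-binding subunits shared with other chromatin complexes: Rbbp4 (log2 −0.27 ± 0.06, adjusted p = 0.00461) and Rbbp7 (log2 −0.30 ± 0.09, adjusted p = 0.0446). The call of Rbbp4 held in 18 of 19 alternatives, all but scaling to ribosomal protein genes (adjusted p = 0.24). That of Rbbp7 held in 8. It was lost with that scaling (adjusted p = 0.296), without DMSO library 2 or 3 of XEN, and without any 1 library of TSC or EpiSC. The corepressor gene Lcor rose (log2 0.30 ± 0.07, adjusted p = 0.0101). This call was lost without DMSO library 2 of TSC or library 2 of either EpiSC group, and with the same scaling (adjusted p = 0.0878). Lcor was also called in TSC (log2 0.65 ± 0.13, adjusted p = 0.0286), where it went from 55.0 ± 3.98 to 86.1 ± 0.087 CPM (mean ± SD, n = 2 each). The TSC call held in 11 of 20 alternatives. It was lost without any 1 library of TSC or EpiSC and with scaling to ribosomal protein genes (adjusted p = 0.152). Exons of Rbbp4 and Rbbp7 overlap the opposite-strand genes Sync and Txlng.

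Of 26 further PRC1 genes, all tested, 4 rose over the mean of the lines and 0 fell by edgeR, where 7.78% of all genes rose and 5.62% fell. DESeq2 called 8 higher and 2 lower, against 18.1% of all genes called, and 12 had an unadjusted p under 0.05, against 25.7%. Among them were Cbx2 and Cbx8, chromobox genes whose proteins bind the PRC2 mark, and Rybp, a subunit of variant PRC1 that stimulates its ligase. Cbx2 rose by log2 0.54 ± 0.09 (adjusted p = 6.73e-04), Cbx8 by 0.47 ± 0.13 (adjusted p = 0.02) and Rybp by 0.44 ± 0.08 (adjusted p = 0.00208). Cbx2 and Rybp kept the call in all 19 alternatives and Cbx8 in 13. Cbx8 lost it without either STM2457 library of TSC or EpiSC or DMSO library 1 of either line (adjusted p up to 0.0844). In XEN, Cbx2 went from 7.61 ± 0.83 to 15.3 ± 3.37 CPM (mean ± SD, n = 3 each), a log2 change of 1.01 ± 0.16 (adjusted p = 0.00217), the largest STM2457 effect among called genes of these lists. Cbx8 and Phc2, a Polyhomeotic gene, were also higher in XEN (log2 0.78 ± 0.18, adjusted p = 0.0238, and 0.42 ± 0.10, adjusted p = 0.0259). An edgeR fit of XEN alone did not call Cbx2, Cbx8 or Phc2 (adjusted p = 0.132, 0.198 and 0.275). Cbx2 kept its call in XEN in 20 of 21 alternatives. The call of Cbx8 in XEN was also lost without STM2457 library 1 or 3 of XEN (adjusted p up to 0.0642). That of Phc2 held in 8 of 21 alternatives and, among left-out libraries, without DMSO library 1 or 2 or STM2457 library 3 of XEN or DMSO library 1 of EpiSC, with adjusted p up to 0.0909 in the others. In EpiSC, Rybp went from 81.7 ± 1.52 to 128 ± 3.3 CPM (n = 2 each, log2 0.65 ± 0.15, adjusted p = 0.0376). That call was lost without any 1 library of EpiSC or TSC and with scaling to ribosomal protein genes (adjusted p = 0.0887). The median mean effect was log2 0.11 over the 26 genes and 0.00 over all genes. None of 7 erasers of Polycomb marks was called with STM2457 by edgeR or by DESeq2 in any line or over the mean. Of all genes, edgeR called 4.15% in XEN, 0.966% in TSC, 1.68% in EpiSC and 13.4% over the mean. An unadjusted p under 0.05 was found for 1 eraser in each line and for 0 over the mean. For all genes these shares were 17.3% in XEN, 13.4% in TSC, 14.8% in EpiSC and 25.7% over the mean. With 7 genes, the counts in single lines are near these shares.

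Between lines in DMSO some of these genes differed by more than any member. Phf19, a Polycomb-like subunit of PRC2, was highest in TSC (162 ± 4.27 CPM, against 7.51 ± 0.549 in EpiSC and 0.687 ± 0.573 in XEN; mean ± SD, n = 3 for XEN and 2 for the others throughout). Its relative Mtf2 was highest in EpiSC (115 ± 3.8 CPM, against 90.8 ± 2.93 and 74.6 ± 4.75). Lcor ran the other way, with its highest level in XEN (238 ± 39.9 CPM, against 55.0 ± 3.98 in TSC and 20.8 ± 1.17 in EpiSC). Lcorl, its relative, was highest in XEN (57.9 ± 7.79 CPM, against 18.1 ± 3.34 and 14.96 ± 1.98), and so was Epop, a PRC2 partner (233 ± 111 CPM, against 121 ± 1.85 and 70.5 ± 1.69). The call of Epop between TSC and XEN was lost without either DMSO library of TSC (adjusted p up to 0.0976), and that of Mtf2 between EpiSC and TSC without either DMSO library of TSC or DMSO library 2 of EpiSC (adjusted p up to 0.103). Among PRC1 genes, Phc1 was highest in EpiSC (302 ± 8.43 CPM, against 49.6 ± 1.29 in TSC and 22.0 ± 4.69 in XEN), and so was Scml2 (16.4 ± 2.03 CPM, against 2.27 ± 0.127 and 1.42 ± 0.407). Phc2 and Scmh1 were highest in TSC (146 ± 3.77 and 76.1 ± 8.99 CPM), above EpiSC (79.4 ± 0.821 and 23.7 ± 1.32 CPM) and XEN (31.0 ± 1.22 and 12.5 ± 4.37 CPM). Cbx7 and Cbx2 were highest in TSC, at 154 ± 10.6 and 72.4 ± 7.2 CPM, against 58.2 ± 2.75 and 30.5 ± 1.29 in EpiSC and 13.8 ± 3.57 and 7.61 ± 0.83 in XEN. Cbx8 was lowest in EpiSC (2.73 ± 0.413 CPM, against 18.9 ± 2.75 in TSC and 13.2 ± 3.72 in XEN). Of the 26 PRC1 genes, 18 were higher and 5 lower in TSC than in XEN, and 16 higher and 6 lower in EpiSC than in XEN, where 36.5% and 36%, and 36.6% and 35.1%, of all genes were higher and lower. With scaling to ribosomal protein genes these counts were 5 higher and 10 lower in TSC, and 6 higher and 10 lower in EpiSC. Among the erasers, the demethylase genes of the PRC2 mark were highest in EpiSC: Kdm6a (133 ± 0.413 CPM, against 77.5 ± 9.3 in TSC and 71.3 ± 8.0 in XEN) and Kdm6b (125 ± 5.87 CPM, against 50.9 ± 11.1 and 51.1 ± 39.1). With scaling to ribosomal protein genes Kdm6a lost its call between EpiSC and XEN (log2 0.09, adjusted p = 0.634), and so did Kdm6b (log2 0.39, adjusted p = 0.588). Kdm6b was called between EpiSC and XEN only (adjusted p = 0.048), a call lost without any 1 library other than library 2 of either XEN group (adjusted p up to 0.133). Asxl2, for a partner of the H2A deubiquitinase, was highest in XEN (164 ± 44.7 CPM, against 52.9 ± 8.25 in TSC and 54.7 ± 4.02 in EpiSC). Usp16, another H2A deubiquitinase, was also highest there (101 ± 8.81 CPM, against 53.5 ± 5.68 and 71.9 ± 0.375), while Asxl1 was lowest there (60.8 ± 1.36 CPM, against 106 ± 14.3 and 104 ± 1.87). With scaling to ribosomal protein genes Asxl1 was not called against XEN in TSC (log2 −0.29, adjusted p = 0.121) or in EpiSC (log2 −0.0258, adjusted p = 0.898). The call of Usp16 between EpiSC and TSC was lost without DMSO library 1 of TSC or either DMSO library of EpiSC (adjusted p up to 0.179).

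Hox cluster genes are classical Polycomb targets. Only 16 of 39 passed the filter, and 0 were called with STM2457 by edgeR in any line or over the mean. Of all genes 4.15% were called in XEN, 0.966% in TSC, 1.68% in EpiSC and 13.4% over the mean. At an unadjusted p under 0.05 there were 0 in XEN, 4 in TSC, 1 in EpiSC and 1 over the mean, against 17.3%, 13.4%, 14.8% and 25.7% of all genes. DESeq2 called 1 over the mean, against 18.1% of genes, and 0 in each line, against 8.62%, 5.27% and 6.26%. With 16 genes, so few calls in a line are near these shares. In DMSO, Hoxb2, Hoxb9 and Hoxb3 read 3.20 ± 0.391, 2.42 ± 0.048 and 1.43 ± 0.087 CPM in EpiSC, at most 0.075 CPM on average in TSC and 0 in XEN. Hoxb13 and Hoxd9 averaged 4.38 ± 0.447 and 1.33 ± 0.036 CPM in TSC, against 0.997 ± 0.276 and 0.318 ± 0.183 CPM in EpiSC.

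Xist and Hnrnpk, whose products recruit the Pcgf3 and Pcgf5 complexes, were not called with STM2457 in any line by edgeR in the fit of all libraries. Xist had log2 effects of −0.60 ± 0.21 in XEN (adjusted p = 0.142), −0.19 ± 0.25 in TSC and 0.04 ± 0.25 in EpiSC. The effect in XEN was called with the replicate block (log2 −0.54, adjusted p = 0.0141), by DESeq2 (log2 −0.62, adjusted p = 0.0367) and with no filter on low counts (log2 −0.61, adjusted p = 3.55e-07). With no filter the difference between lines (adjusted p = 0.0347) and the mean effect (adjusted p = 0.00331) were called too, and the effect in TSC was called in a fit of TSC alone (log2 −0.18, adjusted p = 0.0484). Without DMSO library 1 of XEN the Xist effect in XEN was −0.85 (adjusted p = 0.00242), and the mean effect was then also called (adjusted p = 0.0142). Xist overlaps Tsix on the opposite strand, so its counts can hold reads of either gene. Hnrnpk had a mean effect of log2 −0.20 ± 0.07 (adjusted p = 0.0546) and was called without DMSO library 2 or STM2457 library 3 of XEN (adjusted p = 0.00686 and 0.0264). It was also called by DESeq2 (adjusted p = 0.00638), with the replicate block (adjusted p = 0.00391) and with no filter (adjusted p = 0.033). Fits of single lines called it in TSC (adjusted p = 0.0177) and EpiSC (adjusted p = 0.0071). Exons of Hnrnpk overlap Rmi1 on the opposite strand.

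Over all 14 libraries, the protein-coding gene whose log2 CPM followed each member most closely was Esrp1 for Jarid2 (Pearson r = 0.998), Gnb1 for Ezh2 (0.996), Tex13b for Ezh1 (0.995), Ankrd12 for Pcgf5 (0.991), Atp7b for Suz12 (0.985), Ccnd3 for Eed (0.984) and Gas1 for Pcgf3 (0.983). It was Rbpj for Rnf2 (0.966), Mrpl16 for Ring1 (0.945) and Fmr1 for Aebp2 (0.846). Among the members, Ezh2 ran closest with Jarid2 (r = 0.970) and Eed (r = 0.966), and Pcgf3 and Pcgf5 ran opposite to each other (r = −0.904). The 14 points fall into 3 lines and share library scaling, so these values describe differences between lines more than treatment.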

How the data were processed

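RNA of 14 libraries was read from 1 table of whole-number counts per gene, as the authors deposited it, with no normalization applied. Per the submitters' processing notes, reads passed through FastQC, Trim Galore, STAR (build GRCm39) and featureCounts; versions and the strand setting are not given in the sources used here. Names, exon lengths and transcripts came by Ensembl identifier from GENCODE M21 (GRCm38); 3281 of 55416 identifiers had no name. A single model of 6 groups was fitted to all libraries with edgeR 4.0.16 under R 4.3.3, after filterByExpr (minimum count 10, minimum total 15) and TMM scaling, by its robust quasi-likelihood F test, two-sided, Benjamini-Hochberg adjustment over 18430 genes per comparison, threshold 0.05. CPM used TMM-adjusted totals, and log2 CPM a prior count of 2. Standard errors were derived from F and the log2 fold change. The script was tested on simulated data. Alternatives were DESeq2 1.42.0, RLE and ribosomal protein scaling, no filter, the compared lines alone, leaving out each library in turn and a block for the replicate number. Replicate numbers pair the XEN libraries (same-number correlations of deviations 0.2204, 0.3764 and 0.3368) and not those of TSC (−0.002689) or EpiSC (−0.01205). The chi-square of counts per degree of freedom between replicates was 9.285 to 24.05 in XEN and 2.175 to 4.98 elsewhere.

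The members and lists were chosen with earlier results of these data known. Named beside the members are up to 4 called genes of each list with the smallest p for STM2457, up to 4 with the largest fold between lines (no overlap, at least 5 CPM), up to 3 Hox genes, Xist, Hnrnpk and the gene most like each member. Some genes that this rule selects are not reported here.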

Additional observations from a re-analysis of the deposited data

How the results depend on the processing

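Depth limits Ring1 most, with 97 counts in its shallowest XEN library. Where a library of TSC or EpiSC was left out, its arm held 1 library, which was assumed to vary like the other groups. Over all alternatives, 2679 values of named genes kept their side of the threshold, 131 lost a call and 65 gained one. A further 12 changed sign with a call in either fit. Of the counts, 211 stayed within 1.5 times the main value and 101 did not. Causes were not tested.

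With scaling to ribosomal protein genes some log2 estimates against XEN changed sign. In TSC Rnf2 (−0.70), Pcgf3 (−0.68) and Hnrnpk (−0.69) were then called lower. Ezh1 (−0.12), Eed (−0.26), Suz12 (−0.0413) and Asxl1 (−0.29) were not called there. In EpiSC Suz12 (−0.67) and Hnrnpk (−0.29) were called lower, and Eed (−0.18), Pcgf3 (−0.11) and Asxl1 (−0.0258) were not called. The share of called genes that were higher moved from 50.3% to 19.3%, from 51.1% to 25.7% and, for EpiSC against TSC, from 50.4% to 66.7%. The called genes numbered 140 in XEN, 82 in TSC, 129 in EpiSC, 1379 in the mean and 0 for the difference between lines, against 764, 178, 309, 2470 and 1 in the main analysis. Called members numbered 0 in XEN, 1 in the mean and 3 between EpiSC and TSC, against 1, 4 and 5.

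With the replicate block, 2448, 2036, 2427, 4722 and 262 genes were called in these 5 comparisons, and 3, 3 and 3 members in XEN, TSC and EpiSC and 1 for the difference. With the block on XEN libraries alone, added after seeing the data, 1499 genes and 2 members were called. In XEN every STM2457 library correlated best with the DMSO library of its own number. Fits of single lines called 25 genes and 0 members in XEN, 4378 and 4 in TSC, and 4321 and 4 in EpiSC, and the 2-line fit 8 members between EpiSC and TSC. DESeq2 called 1589 genes and 3 members in XEN, 971 and 1 in TSC, 1153 and 2 in EpiSC, and 79 genes for the difference. With no filter, 332 genes were called in TSC, 585 in EpiSC and 93 for the difference, and 0 members in XEN.

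Leaving out 1 library gave 414 to 1048 genes and 0 to 2 members in XEN, 3 to 478 and 0 to 1 in TSC, 7 to 784 and 0 to 3 in EpiSC, 1404 to 3247 and 3 to 5 in the mean, and 0 to 5 genes for the difference.

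The sums of members and the list counts under scaling to ribosomal protein genes were chosen after seeing the data.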
